A study of Arabidopsis thaliana with 29 samples.

Results

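These results concern 150 nuclear loci of Arabidopsis thaliana whose mean RNA level in wild-type Col0 plants after 12 days without water stood furthest above the other groups. They were taken from 33681 loci, of which 5579 nuclear ones had a mean of at least 10 TPM (a transcript's share of its library's RNA, corrected for transcript length) in Col0 at 12 days. For each of these, the score was log2(mean + 1) at Col0 12D minus the highest log2(mean + 1) among Col0 0D, Col0 9D and all 5 pp7l groups, called the ceiling here. Members were chosen by these group means, as the 150 highest scores, so the high level at Col0 12D and the low level in those 7 groups are how the members were chosen and are given without a test. Col0 6D and Col0 15D took no part in the choice.

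Whole plants were raised on soil under long days, and water was withheld from the age of 3 weeks. RNA was sequenced from the pp7l mutant, which lacks a phosphatase-like protein of the PP7 family that plants need for normal chloroplast development, after 0, 6, 9, 12 and 15 days (15 libraries), and from Col0, the wild type, after the same days (14 libraries). Each group held 3 libraries, except Col0 6D with 2. Sample labels and series text disagree on the pp7l allele number, so the mutant is written pp7l. The column headers of the deposited table mark the replicates as "brep", and no source says if they came from separate plants, so p-values measure the spread between these libraries.

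Drying plants make abscisic acid (ABA), and its receptors then bind and block a group of type 2C protein phosphatases. This frees kinases that activate bZIP transcription factors, which bind the ABA-responsive element (ABRE, with the core ACGTG) in front of many genes. Among the best known of these genes are those of LEA proteins and dehydrins, small hydrophilic proteins that build up in drying leaves and in ripening seeds.

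Several libraries held unusual RNA, which bears on every level at 12 and 15 days because TPM are shares of a total. Ribosomal RNA loci took 27.5%, 0.110% and 61.2% of the TPM of the 3 Col0 15D libraries and 25.0% of Col0 12D replicate 3, and the single locus AT1G15405 took 46.0% of Col0 15D replicate 2. Nuclear loci other than these made up 7.61% to 18.4% of the TPM in Col0 15D, against 31.1% to 36.2% in Col0 12D. Levels are therefore given as deposited and, where it matters, rescaled to the same total over the nuclear loci without the rRNA loci and AT1G15405. One Col0 6D library also stood apart, with 17976 loci above 0, against 21845 in the other. PP7L itself was at or below 2.62 TPM in every library and was not lower in pp7l, so it does not check the genotype labels.

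The upstream sequences of 3 members are shown first, because they hold 2 of the motifs counted over the members below. Each is the 250 bases before the annotated gene start in TAIR10.1, written 5′ to 3′ on the strand of the gene, from the RefSeq copy of the genome. RAB18, a dehydrin gene, lies on the minus strand with its window at chr5:26519448-26519697, and LEA7, which codes for a LEA protein, on the plus strand with its window at chr1:19619474-19619723. In these 2 the capitals mark the ABRE core ACGTG on either strand, in 3 separate runs for RAB18 and 4 for LEA7. LTI30, another dehydrin gene (plus strand, chr3:18940393-18940642), has no ABRE core in this window, and its capitals mark CCGAC, the core of the drought-responsive element bound by DREB factors.
RAB18: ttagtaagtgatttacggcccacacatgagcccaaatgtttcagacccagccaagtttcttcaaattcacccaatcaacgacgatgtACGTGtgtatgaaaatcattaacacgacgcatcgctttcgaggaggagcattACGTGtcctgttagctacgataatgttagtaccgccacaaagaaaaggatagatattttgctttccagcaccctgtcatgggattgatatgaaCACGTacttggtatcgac
LEA7: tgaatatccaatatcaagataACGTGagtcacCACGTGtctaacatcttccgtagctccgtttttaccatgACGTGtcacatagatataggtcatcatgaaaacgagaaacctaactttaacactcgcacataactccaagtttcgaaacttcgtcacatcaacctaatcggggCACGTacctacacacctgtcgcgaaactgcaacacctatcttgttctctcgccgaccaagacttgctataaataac
LTI30: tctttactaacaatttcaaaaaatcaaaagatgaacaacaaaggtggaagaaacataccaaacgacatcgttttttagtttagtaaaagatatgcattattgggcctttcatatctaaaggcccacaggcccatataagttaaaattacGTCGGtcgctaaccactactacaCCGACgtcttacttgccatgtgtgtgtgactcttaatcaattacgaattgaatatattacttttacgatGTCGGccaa

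Of the 149 members with a protein-coding product, 70 (47.0%) had an ABRE core within 250 bases upstream, with both strands searched, against 22.9% of all 27443 nuclear protein-coding loci. Among the 5326 other such loci with at least 10 TPM at Col0 12D the share was 26.5%. The G-box CACGTG, which holds the ABRE core on both strands, was found before 18.1% of the members and 8.94% of those other loci. The DRE core CCGAC was found before 19.5% of the members and 14.3% of the other loci. The RY repeat CATGCA, the binding motif of B3 factors of seed maturation, stood before 12.8% of the members and 6.21% of the other loci. By contrast, the W-box core TTGAC, read by WRKY factors, was found in 45.0% of the member windows and 46.0% of the others, and the TATA core TATAAA in 50.3% and 45.9% in the same order. These shares are descriptions of letters in a window and were not tested.

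**Figure D1:**
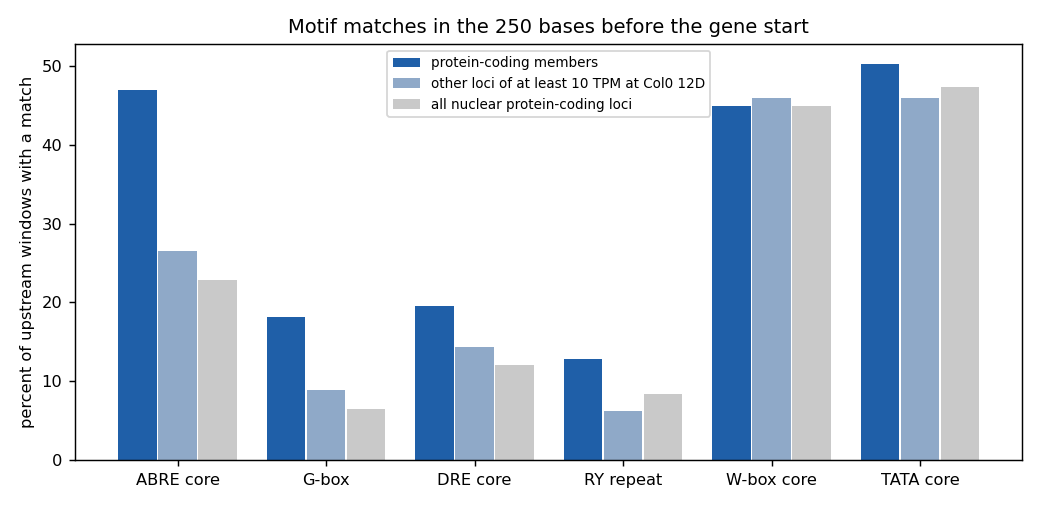
Percent of upstream windows of 250 bases with at least 1 match on either strand, for the 149 protein-coding members (dark blue), the 5326 other protein-coding loci of at least 10 TPM at Col0 12D (light blue) and all 27443 nuclear protein-coding loci (grey). The ABRE core stands at 47.0%, 26.5% and 22.9% in these sets, while the W-box core lies between 44.9% and 46.0% in all of them.

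The median level over the 150 members was higher on every later day than before drought in both genotypes, but did not rise at every step. In pp7l the median of the group means was 0.301 TPM before drought, 1.85 TPM after 6 days, 1.56 TPM after 9, 3.09 TPM after 12 and 5.30 TPM after 15. In Col0 it was 0.344 TPM before drought, 0.599 TPM after 6 days, 2.95 TPM after 9, 63.8 TPM after 12 and 18.0 TPM after 15. The choice used Col0 0D, 9D and 12D and all pp7l groups. It did not use Col0 6D and 15D, but these days lie next to days that it used. Levels in pp7l were not flat, since 137 of the 150 members had a higher mean at pp7l 15D than at pp7l 0D. The ceiling was set by pp7l 15D for 94 members, by Col0 9D for 37, by pp7l 12D for 11, and by Col0 0D and pp7l 6D for 4 each.

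**Figure D2:**
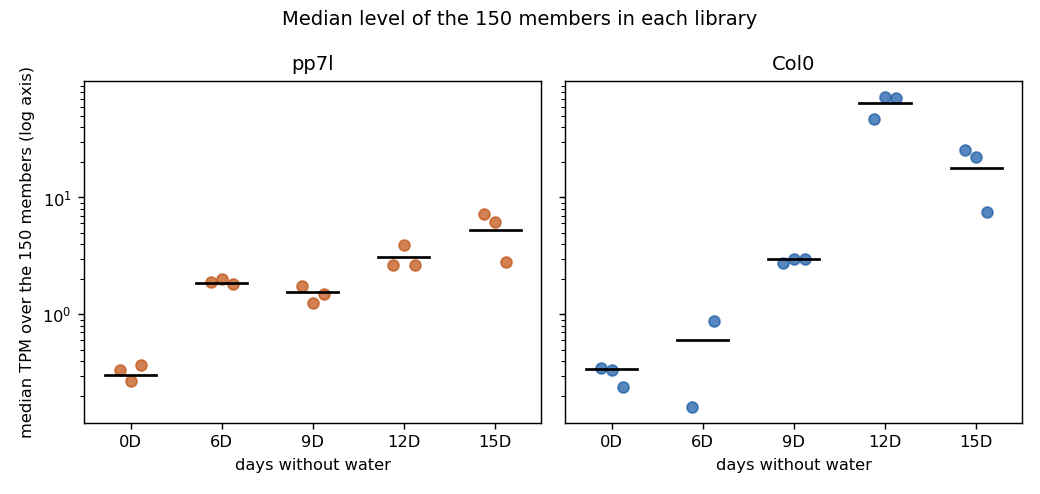
Median TPM over the 150 members in each library (points) and median of the group means (black lines) by days without water, on a log axis, for pp7l on the left and Col0 on the right. The pp7l 15D libraries sit between 2.82 and 7.19 TPM, the Col0 15D libraries between 7.48 and 25.7 TPM, and the Col0 12D libraries between 47.1 and 73.0 TPM.

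The members were not on at 12 days alone, nor in Col0 alone. At least 10 TPM were still measured at Col0 15D for 104 of the 150, and 55 had a pp7l 15D mean of at least 10 TPM. On the other hand, 30 members had every pp7l group mean below 1 TPM, and 26 of these reached 1 TPM in no pp7l library. In 146 of 150 each Col0 12D library was above every library of the 7 ceiling groups, which describes the choice and supports nothing further. As a share of the rescaled nuclear TPM, the 149 members other than an rRNA locus took 0.561% to 1.17% in pp7l 15D, and in Col0 0.195% to 0.226% at 0D, 6.51% to 9.61% at 12D and 7.46% to 8.31% at 15D. Their joint share at Col0 15D thus lay inside its range at Col0 12D in all 3 libraries, although single members went up or down.

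A few members rest on 1 library. The locus with the highest score, AT2G01020, is a ribosomal RNA gene (chr2:5782-5945) identical to other rRNA copies, and Col0 12D replicate 3 had 208190 TPM of it, against 255 and 312 TPM in replicates 1 and 2. AT2G29452 and AT3G09863 were each listed at 33.7 TPM in Col0 12D replicate 3 and at 0 in every other library, and they did not pass the filter of 1 TPM in 3 libraries. The other 148 members passed it. In all, 9 members had over 60% of their Col0 12D TPM in a single library, among them AT1G62060, AT5G38160, AT5G38170 and HSP17.4. AT5G39130, a cupin gene, has near-identical copies, so its reads may be shared with them.

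The comparison least touched by the choice sets Col0 15D against Col0 6D, neither of which was used. Both lie next to days that the choice used, so it is not free of the choice. Of 148 members tested, 143 were called higher at Col0 15D (limma, Benjamini-Hochberg adjusted p below 0.05) and 1 lower, while 11.4% of all 18757 loci tested were called higher and 37.8% lower. The median log2 change was 3.12 over the members and -0.43 over all loci tested. After rescaling, 146 of 147 members were called higher and 1 lower, against 21.4% and 44.1% of all loci and 34.0% and 32.8% of the other loci. With only the 5 libraries of these groups in the fit the count was 83, against 230 of all 18757 loci. With library weights it was 81, against 309 of all loci. In 76 members both Col0 6D libraries were below 1 TPM. The members not called higher were the sugar and transport genes CWINV5, BAM5 and AT1G68570, the ABA synthesis gene NCED3 and the dehydrin gene ERD10, of which BAM5 was called lower. CWINV5 falls outside the rule for named genes and is named because the count is small.

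Dehydrins and other LEA proteins made up 8 members of the 33 genes of the LEA list. RAB18 (AT5G66400) had 211, 186 and 52.5 TPM in the 3 pp7l 15D libraries, 5.58 and 6.72 TPM in Col0 6D, 2264, 2426 and 3455 TPM in Col0 12D and 545, 501 and 197 TPM in Col0 15D. Every Col0 12D library was above all others and both Col0 6D libraries were below them, while the pp7l 15D and Col0 15D ranges overlapped. At Col0 15D the level of RAB18 was higher than at Col0 6D by 5.73 ± 0.59 on the log2(TPM + 1) scale (SE, adjusted p = 1e-08). LTI30 averaged 134 ± 47.2 TPM in pp7l 15D, 289 ± 164 TPM in Col0 15D and 2323 ± 567 TPM in Col0 12D (SD, n = 3 each). LEA7 had 0 and 0.936 TPM in Col0 6D, 427, 612 and 605 TPM in Col0 12D and 106, 155 and 51.1 TPM in Col0 15D. Its Col0 15D libraries lay between the other 2 groups, with a change of 6.10 ± 0.47 over Col0 6D (SE, log2 scale, adjusted p = 6e-11). The neighbouring cold- and drought-induced genes COR47 and ERD10 (chr1:7084409-7086873 and chr1:7087903-7089606) fell alike from Col0 12D to Col0 15D. They averaged 42.1 ± 22.7 and 69.2 ± 39.4 TPM in Col0 15D, against 412 ± 104 and 605 ± 73.8 TPM in Col0 12D (SD, n = 3 each). Against Col0 6D, COR47 was called higher at Col0 15D and ERD10 was not.

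The LEA members kept a smaller share of their Col0 12D level at 15 days than the median member. COR47 kept 10.2% of its Col0 12D mean at Col0 15D, ERD10 11.4%, LTI30 12.4%, RAB18 15.3% and LEA7 19.0%, and with rescaled TPM these shares were 21.8%, 24.1%, 26.2%, 33.4% and 42.2% in the same order. The median member kept 27.8% as deposited and 58.9% rescaled. All 10 LEA-type products in the set, which include AT2G21820 and AT5G66780 beyond the list, were called lower at Col0 15D than at Col0 12D on both scales. On the deposited scale 81.5% of all loci were called lower and on the rescaled scale 57.5%, so the deposited count carries nothing particular to these genes. Over the whole LEA list, 17 of 24 tested genes were called higher and 4 lower at Col0 15D than at Col0 6D, against 11.4% and 37.8% of all loci. The list count includes the 8 members, which were chosen by their high Col0 12D level, so it is not independent of the choice. Among list genes that were not members, ERD14 averaged 322 TPM in pp7l 15D, 663 TPM in Col0 12D and 758 TPM in Col0 9D, and COR15A averaged 461 TPM in pp7l 12D and 660 TPM in Col0 12D, so their ceilings were near their Col0 12D level. COR15B and KIN2, also no members, went the other way. They averaged 126 and 1090.5 TPM in pp7l 12D, against 5.97 and 279 TPM in Col0 12D.

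**Figure D3:**
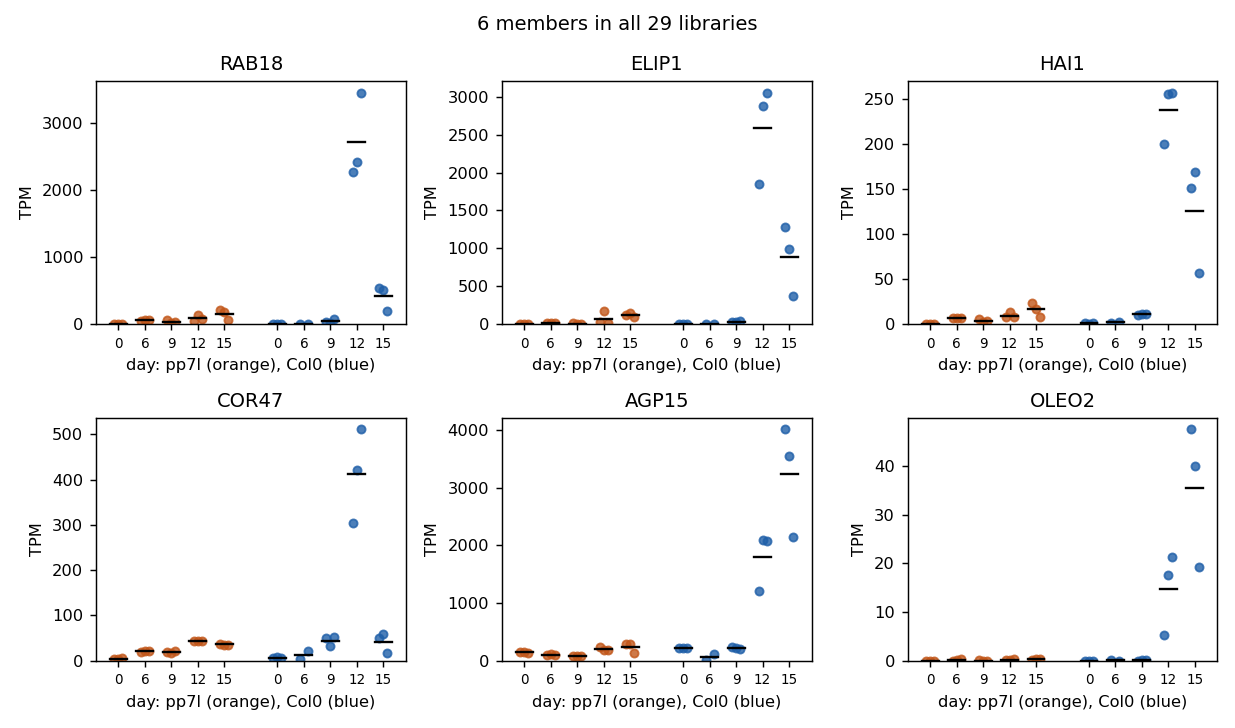
TPM of 6 members in every library (points; black lines are group means), with pp7l in orange on the left of each panel and Col0 in blue on the right, by day without water. RAB18, ELIP1, HAI1 and COR47 have their highest mean at Col0 12D, while AGP15 and OLEO2 have theirs at Col0 15D, at 3232 and 35.6 TPM.

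Members of the ABA pathway included several of its negative regulators, of which the list itself holds many. Whether they were more frequent among the members than in the list was not tested. Of 32 genes of the ABA list 6 were members: the type 2C phosphatase genes HAI1, HAI3 and ABI2, which code for brakes on ABA signalling, AFP1, whose protein binds and restrains the bZIP factor ABI5, NCED3, the rate-limiting enzyme of ABA synthesis, and the ABA-induced LTI65 (RD29B). HAI1 had 23.2, 17.2 and 8.12 TPM in pp7l 15D, 1.60 and 2.13 TPM in Col0 6D, 201, 256 and 258 TPM in Col0 12D and 152, 169 and 56.9 TPM in Col0 15D. All Col0 15D libraries lay below those of Col0 12D and above those of the other 2 groups. HAI1 was higher at Col0 15D than at Col0 6D by 5.33 ± 0.38 (SE, log2 scale, adjusted p = 1.4e-11). HAI1 kept 52.8% of its Col0 12D mean as deposited, and 116% rescaled. ABI2 averaged 17.3 ± 5.94 TPM in pp7l 15D, 41.3 ± 18.5 TPM in Col0 15D and 115 ± 14.0 TPM in Col0 12D (SD, n = 3 each).

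NCED3 behaved differently before 12 days. It had 3.67, 4.36 and 4.97 TPM in pp7l 15D, 5.65 and 6.81 TPM in Col0 6D, 34.7, 55.6 and 68.6 TPM in Col0 12D and 15.5, 15.0 and 4.85 TPM in Col0 15D. Its group means in pp7l stayed between 2.00 and 4.33 TPM on all days. The Col0 15D level overlapped that of Col0 6D, and the change of 0.68 ± 0.33 (SE, log2 scale) did not pass the test (adjusted p = 0.087). Phosphatase genes of the same group that were not members also had their highest Col0 mean at 12D, with HAI2 at 9.89 TPM in pp7l 12D and 73.3 TPM in Col0 12D, ABI1 at 18.3 and 86.0 TPM, and PP2CA at 71.5 and 340 TPM in the same groups. Over the ABA list, 15 of 27 tested genes were called higher and 2 lower at Col0 15D than at Col0 6D, against 11.4% and 37.8% of all loci. This count, too, includes the 6 members and is not independent of the choice.

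Transcription factors of the drought response were present with 4 of 26 list genes. RD26 and NAC032 code for NAC factors, and HB-7 and HB-12 for closely related homeodomain-leucine zipper factors induced by ABA. RD26 averaged 12.2 ± 6.46 TPM in pp7l 15D, 41.4 ± 17.9 TPM in Col0 15D and 120 ± 14.5 TPM in Col0 12D, and NAC032 averaged 17.7 ± 4.54, 65.1 ± 37.6 and 166 ± 31.7 TPM in the same groups (SD, n = 3 each). Rescaled, RD26 kept 76.3% and NAC032 83.3% of the Col0 12D level at Col0 15D, whereas HB-7 kept 21.4% and HB-12 32.7%. HB-7 had 33.5, 25.8 and 25.2 TPM in pp7l 15D and 20.7, 24.7 and 6.13 TPM in Col0 15D, against 167, 181 and 160 TPM in Col0 12D. All its Col0 15D libraries were below those of pp7l 15D as deposited, and the direction turned when rescaled (a Col0 minus pp7l difference of 0.05 on the log2 scale). Of the 24 tested genes of this list, 20 were called higher and 2 lower at Col0 15D than at Col0 6D, against 11.4% and 37.8% of all loci. With the 4 members among them, this count is not independent of the choice. Just outside the set stood LTI78 (RD29A) with a score of 2.42, the NAC gene NAC6 (ORE1) with 2.42 and the zinc-finger gene ZAT6 with 2.41. Just inside it were AT5G16360 and AT5G10625 with 2.45 each and AT5G49180 with 2.43.

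All 10 members of sugar and starch metabolism were called lower at Col0 15D than at Col0 12D, and 7 of them were when rescaled. Of all loci 81.5% were called lower, and 57.5% when rescaled. Among the other loci of at least 10 TPM at Col0 12D these shares were 90.8% and 62.9%, so the counts carry nothing particular to these genes. The shares that the 10 members kept differed widely. SIP2, known to code for an alpha-galactosidase of raffinose breakdown, had 144, 89.8 and 33.3 TPM in pp7l 15D, 5.89 and 22.0 TPM in Col0 6D, 593, 1029 and 1049 TPM in Col0 12D and 491, 504 and 194 TPM in Col0 15D. Every Col0 15D library of SIP2 was above both Col0 6D libraries (4.86 ± 0.51, SE, log2 scale, adjusted p = 1.3e-08), and rescaled it kept 99.1% of its Col0 12D level. BAM5, a beta-amylase gene, had 2.47 and 4.05 TPM in Col0 6D, 27.7, 36.2 and 49.1 TPM in Col0 12D and 3.01, 0.807 and 0.451 TPM in Col0 15D. It was lower at Col0 15D than at Col0 6D (-0.93 ± 0.31, SE, log2 scale, adjusted p = 0.016). That call was lost with a pseudocount of 5, with median-of-ratios scaling (-0.55), with only these groups in the fit, with library weights (-0.06), and without Col0 15D replicate 2 (-0.79), Col0 15D replicate 3 (-0.64) or Col0 6D replicate 3 (-0.66). APL4, a large subunit of the starch-making ADP-glucose pyrophosphorylase, averaged 17.3 ± 2.05 TPM in pp7l 15D, 11.2 ± 6.43 TPM in Col0 15D and 117 ± 15.9 TPM in Col0 12D (SD, n = 3 each). The cell-wall invertase gene CWINV5 averaged 1.01 ± 0.54 TPM in Col0 15D and 18.0 ± 3.14 TPM in Col0 12D. AT4G33150, the bifunctional lysine breakdown enzyme LKR/SDH, averaged 30.0 ± 16.2 TPM in Col0 15D and 162 ± 24.0 TPM in Col0 12D.

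Among single abundant members, ELIP1, an early light-induced protein of the thylakoid, had 113, 141 and 93.6 TPM in pp7l 15D, 0 and 1.53 TPM in Col0 6D, 1844, 2877 and 3056 TPM in Col0 12D and 1286, 985 and 370 TPM in Col0 15D. Its change over Col0 6D was the largest among the protein-coding members tested, at 8.93 ± 0.60 (SE, log2 scale, adjusted p = 4.7e-12). AT1G05340, a small cysteine-rich membrane protein, had 4.10 and 5.67 TPM in Col0 6D, and averaged 1159 ± 255 TPM in Col0 12D and 1222 ± 569 TPM in Col0 15D (SD, n = 3 each). RCI2A, a small hydrophobic membrane protein induced by cold and salt, averaged 103 ± 8.34 TPM in pp7l 15D, 632 ± 239 TPM in Col0 15D and 757 ± 156 TPM in Col0 12D. DI21, named for its induction by drought, averaged 178 ± 60.3 TPM in pp7l 15D, 309 ± 153 TPM in Col0 15D and 1287 ± 254 TPM in Col0 12D. SAG29, a SWEET sugar transporter first found in senescing leaves, averaged 3.14 ± 2.33 TPM in pp7l 15D, 63.1 ± 36.8 TPM in Col0 15D and 174 ± 63.4 TPM in Col0 12D. No gene of the list of senescence and chlorophyll breakdown was a member, although all 7 had at least 10 TPM at Col0 12D, and none of the 7 autophagy genes was.

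The fall from Col0 12D to Col0 15D in deposited TPM was shared with the rest of the transcriptome. Of 148 tested members 125 were called lower and 3 higher at Col0 15D than at Col0 12D, while 81.5% of all loci were called lower and 1.02% higher. The members' median kept 27.8% of the Col0 12D level, against 25.2% for the 5429 other loci of at least 10 TPM. All 3 Col0 15D libraries lay below all 3 Col0 12D libraries for 109 members, against 81.8% of tested loci. Rescaled, 66 of 147 members were called lower and 16 higher, against 57.5% and 5.27% of all loci, and the medians kept were 58.9% for the members and 54.6% for the others. With median-of-ratios scaling 30 members were called lower and 49 higher, against 17.1% and 21.7% of all loci. Col0 12D is a group the choice used, so these counts are given as a description. As deposited, 114 members were at or below 50% of the Col0 12D mean at Col0 15D, 66 at or below 25%, 14 at or below 10%, and 12 were above 100%.

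**Figure D4:**
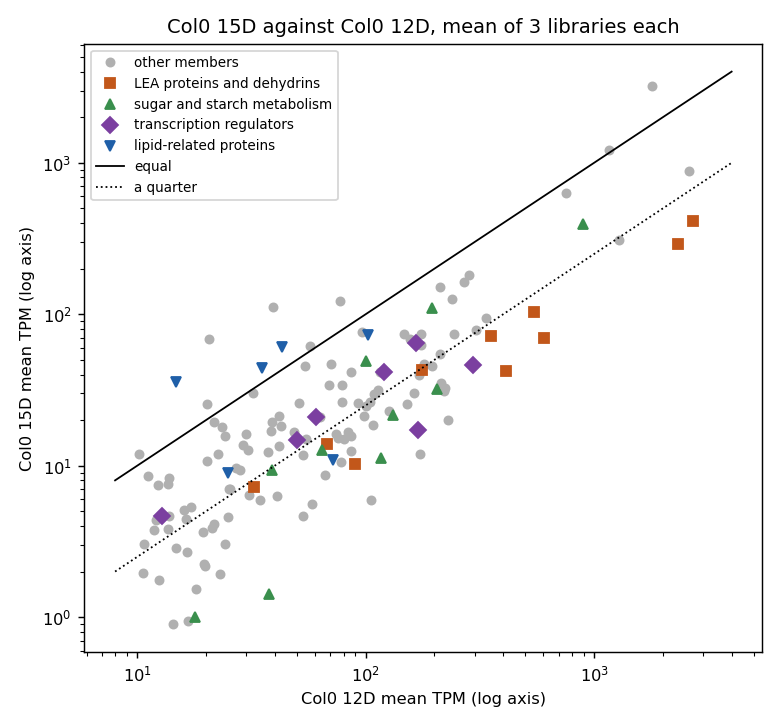
Mean TPM at Col0 15D against Col0 12D for 147 members (3 libraries a group, both axes log; the rRNA locus and the 2 untested loci are left out), with 4 product classes marked. The LEA proteins and dehydrins (orange squares) lie below the dotted line of 25%, and OLEO2 and 2 lipid-transfer genes (blue triangles pointing down) lie above the solid line of equality.

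The members called higher at Col0 15D than at Col0 12D on both the deposited and the rescaled scale were OLEO2, which codes for an oleosin of seed oil bodies, AT1G75600 and AT1G62060. OLEO2 had 47.6, 39.9 and 19.3 TPM in Col0 15D, against 5.38, 17.7 and 21.4 TPM in Col0 12D, and was at or below 0.328 TPM in every pp7l 12D and pp7l 15D library. Its Col0 15D replicate 3 lay within the Col0 12D range, and its call was lost with only these groups in the fit. AT1G75600, a histone gene, had 151, 130 and 54.1 TPM in Col0 15D, against 16.2, 42.2 and 59.4 TPM in Col0 12D. AT1G62060, of unknown function, had 60.3, 113 and 33.6 TPM in Col0 15D, against 5.12, 0 and 57.0 TPM in Col0 12D, so its Col0 12D mean rests on replicate 3. Against Col0 6D the changes of these genes were 4.98 ± 0.33, 6.69 ± 0.40 and 5.87 ± 0.77 (SE, log2 scale, adjusted p = 4.3e-12, 8.6e-13 and 5.4e-07).

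The other 13 that were called higher on the rescaled scale include AGP15, an arabinogalactan protein of the cell surface, with 4010, 3553 and 2134 TPM in Col0 15D, against 1210, 2094 and 2072 TPM in Col0 12D. All 3 Col0 15D libraries of AGP15 were above all 3 of Col0 12D, and pp7l 15D had 297, 296 and 128 TPM. The adjacent lipid-transfer genes AT5G38160 and AT5G38170 (chr5:15225767-15226208 and chr5:15227638-15228081) were listed at 0 in every pp7l library at 12 and 15 days. AT5G38160 had 71.1, 85.5 and 26.3 TPM in Col0 15D, against 19.2, 20.7 and 89.2 TPM in Col0 12D, and was higher at Col0 15D than at Col0 6D, where both libraries were at 0, by 5.79 ± 0.41 (SE, log2 scale, adjusted p = 1.6e-11). The lowest share kept at Col0 15D among tested members was that of BAM5 at 3.78%, followed by CWINV5 at 5.62%, the defensin-like gene AT5G55132 at 5.64% and the GILT-type thiol reductase gene AT4G12870 at 5.68%. GILT itself had 31.1, 21.6 and 7.51 TPM in Col0 15D, against 142, 232 and 314 TPM in Col0 12D. AT1G68570, a transporter of the major facilitator type, averaged 28.6 ± 1.27 TPM in pp7l 15D, 12.0 ± 7.06 TPM in Col0 15D and 173 ± 44.4 TPM in Col0 12D (SD, n = 3 each).

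**Figure D5:**
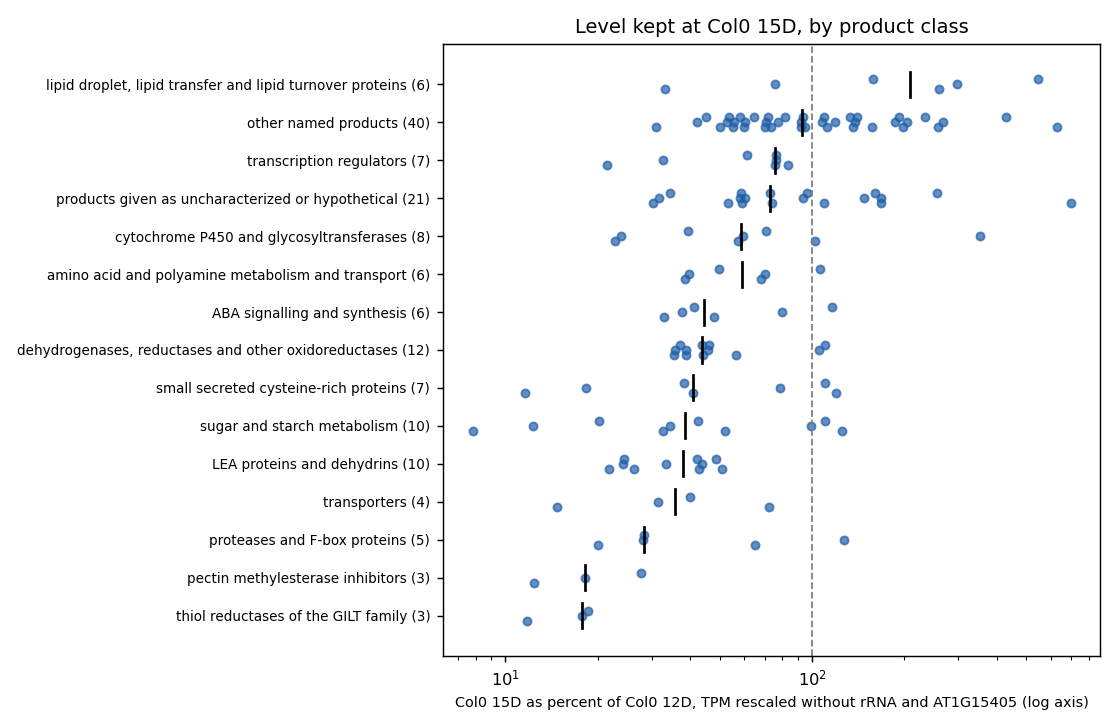
Col0 15D mean as percent of the Col0 12D mean in rescaled TPM (log axis) for each member (points) of product classes with at least 3 members, with class medians as black bars and 100% as a dashed line; the number of members is in brackets. The 3 GILT-type genes have a median of 17.7% and the 10 LEA-type products one of 37.8%, while 4 of 6 lipid-related products stand above 100%.

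The 30 members with every pp7l group mean below 1 TPM include DELTA-VPE, a vacuolar processing protease known from the seed coat, OLEO2, the lipid-transfer pair AT5G38160 and AT5G38170, GILT and its relative AT4G12890, the pectin methylesterase inhibitor genes AT1G56100, AT4G15750 and AT5G49180, and small cysteine-rich secreted proteins such as GASA2, LCR48 and LCR73. DELTA-VPE had 0, 0.0813 and 0.434 TPM in pp7l 15D, 14.8, 13.2 and 3.65 TPM in Col0 15D and 50.2, 83.9 and 100 TPM in Col0 12D. Of the LEA, ABA and transcription factor list members, none belongs to these 30. The RY repeat stood before 8 of the 30 (26.7%) and 11 of the other 119 protein-coding members (9.24%), and the DRE core before 2 of the 30 (6.67%) and 27 of the 119 (22.7%). The TATA core also differed, at 70.0% of the 30 and 45.4% of the 119. In the same order, the ABRE core stood at 40.0% and 48.7%, the G-box at 13.3% and 19.3%, and the W-box core at 43.3% and 45.4%. None of these differences was tested. This group, and several of the genes named in it, were chosen for description after their values were seen.

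Marker genes of organs differed between the same groups. Summed TPM of 4 anther and pollen markers were 1.95 to 6.29 in pp7l 12D, and in Col0 0 to 0.363 at 0D, 23.51 to 41.34 at 9D, 28.2 to 33.6 at 12D and 2.52 to 9.52 at 15D. From Col0 9D to Col0 12D the means of A9 (5.58 to 2.85 TPM) and ATA7 (12.2 to 4.89 TPM) fell. Those of MS2 (1.18 to 1.48 TPM) and VGD1 (13.5 to 21.5 TPM) rose. The summed TPM of 4 seed coat and ovule markers were 0.0377 to 0.218 in pp7l 12D, with BAN and TT12 at 0, and in Col0 3.19 to 5.15 at 9D, 6.65 to 12.1 at 12D and 0.478 to 1.73 at 15D. Summed TPM of 7 flower organ markers were 2.21 to 3.24 in pp7l 12D, 22.7 to 28.9 in Col0 12D and 35.6 to 42.3 in Col0 9D. The 14 genes of seed storage and maturation, none a member, summed to 0.418 to 1.34 TPM in pp7l 15D, 98.1 to 311 TPM in Col0 15D and 1.43 to 8.41 TPM in Col0 12D. Of these, 7 passed the filter. The oleosin genes OLEO1 and OLEO2, also planned as seed markers, were placed in the lipid droplet list instead, and OLEO2 is a member. The storage genes SESA3 and CRA1 had the highest Col0 15D means (49.1 and 39.0 TPM). The regulators LEC1 (1.12 to 0.488 TPM), LEC2 (0.0753 to 0.018 TPM) and FUS3 (0.503 to 0.437 TPM) did not rise from Col0 12D to Col0 15D. ABI3 went from 0.097 to 0.260 TPM. Leaf mesophyll markers summed to 790 to 890 TPM in pp7l 12D, 10.9 to 55.2 TPM in Col0 15D and 167 to 215 TPM in Col0 12D. Root markers summed to 28.7 to 53.0 TPM in pp7l 12D and 3.14 to 4.59 TPM in Col0 12D, and guard cell markers to 5.20 to 7.43 TPM in pp7l 12D and 0.655 to 1.53 TPM in Col0 12D. All markers of both lists had lower means in Col0 12D, but most of each pp7l sum was a single gene. PYK10 averaged 31.2 TPM in pp7l 12D and 0.413 TPM in Col0 12D, while SCR averaged 2.54 and 2.21 TPM. GC1 averaged 4.44 and 0.107 TPM in these groups, MYB60 1.14 and 0.721 TPM, and HT1 0.529 and 0.263 TPM. The part of these organ differences in the members' levels was not tested, and in whole plants more or fewer cells of a type and more or less RNA per cell cannot be told apart.

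Set against pp7l on day 15, most members were still higher in Col0. Of 148 members tested, 113 were called higher in Col0 15D than in pp7l 15D and 3 lower, while 4.46% of all loci were called higher and 77.5% lower. Since low levels in pp7l 15D were part of the choice, these counts are given without weight. Rescaled, 138 of 147 members were called higher and 1 lower, against 11.2% and 62.6% of all loci. The 3 called lower as deposited were APL4, HB-7 and AT1G68570, with Col0 minus pp7l differences of -0.77 ± 0.35, -0.87 ± 0.40 and -1.39 ± 0.38 (SE, log2 scale), of which that of AT1G68570 was also lower when rescaled, at -0.51. The calls of APL4 and HB-7 were lost under most other settings, among them the replicate block and leaving out Col0 15D replicate 3 or any pp7l 15D library. Same-numbered pp7l and Col0 libraries of day 15 deviated together, and with the replicate number as a block 114 members were called higher and 1 lower. Of all 18757 loci, 826 were called higher and 14450 lower with this block. For RAB18, the Col0 15D level exceeded that of pp7l 15D by 1.56 ± 0.53 on this scale, for HAI1 by 2.85 ± 0.34, and for COR47 by 0.03 ± 0.41. The COR47 libraries of pp7l and Col0 overlapped on day 15, with means of 36.0 TPM in pp7l 15D and 42.1 TPM in Col0 15D.

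Against Col0 0D, 147 of 148 members were called higher at Col0 15D and 0 lower, with BAM5 the exception, while 16.7% of all loci were called higher and 34.7% lower. Low levels at Col0 0D were part of the choice, so this count is given as a description. As deposited, 21 members had come back to or below their ceiling at Col0 15D, and 7 had when rescaled. The members lay on all 5 chromosomes, and 16 of them formed 8 pairs no more than 3 loci apart, among them COR47 with ERD10, GASA3 with GASA2 and CYP709B2 with CYP709B1.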

How the data were processed

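RNA was measured in 29 libraries of whole plants, 15 of pp7l and 14 of Col0. The authors deposited TPM per gene; the submitters' processing notes name Trimmomatic, FastQC, Salmon and the build TAIR10. Versions are not given in the sources used here. The table holds no counts, so depth per library is unknown and precision rests on the replicates. Every column was matched to a sample.

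Means were taken over the deposited TPM. Tests used limma 3.58.1 in R 4.3.3 on log2(TPM + 1), which understates changes of low genes: a single model of 10 group means over 29 libraries (19 residual degrees of freedom, intensity trend), for 18757 loci with at least 1 TPM in at least 3 libraries, with Benjamini-Hochberg adjustment at 0.05 within each of 4 comparisons. The fit was tested on simulated data. Rescaled TPM leave out organelle loci, 4 rRNA loci and AT1G15405. Other settings tried were pseudocounts of 0.1 and 5, other filters, median-of-ratios scaling, only the compared groups, library weights, a replicate block and leaving out each replicate.

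Gene names, product classes and the windows of 250 upstream bases came from RefSeq's annotation of TAIR10.1, which held all 150 members; the deposited table carries no coordinates. Near-identical copies were sought with blastn 2.17.0 (identity of at least 95% over at least 80% of the transcript). Figures were drawn with matplotlib 3.10.9. Members, the 18 gene lists and the tests were chosen with earlier results of these data known, and the product classes were adjusted after values were seen. Genes could be named for the 10 highest scores, the 10 highest Col0 12D levels, the 5 highest and 5 lowest changes from Col0 12D, the 5 highest changes from Col0 6D, list membership, the 3 loci on each side of the limit or the 3 most variable at Col0 12D; others are named as examples of a class or a small count. Same-numbered pp7l 15D and Col0 15D libraries deviated from their group means together, though weakly (Pearson's r of 0.134, 0.124 and 0.265 across genes). In the other comparisons r lay between -0.281 and 0.171. The main model holds no replicate block for any comparison, and the block is given as another setting.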

Additional observations from a re-analysis of the deposited data

How the results depend on the processing

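For Col0 15D against Col0 6D the count of members called higher, 143, was 83 with only the compared groups in the fit and 81 with library weights, and lay between 139 and 146 with 1 library left out. The calls over all loci fell as well, from 2143 to 230 with only the compared groups and 309 with library weights. The 1 member called lower, BAM5, was 0 with a pseudocount of 5, median-of-ratios scaling, only the compared groups or library weights, and 0 to 1 with 1 library left out. For Col0 15D against Col0 12D the members called higher numbered 3, but 49 with median-of-ratios scaling, 16 rescaled, 13 with library weights, 2 with only the compared groups, which loses the call of OLEO2, and 3 to 7 with 1 library left out. Those called lower numbered 125, but 30 with median-of-ratios scaling, 66 rescaled and 99 to 130 with 1 library left out. Over all loci 192 were called higher, but 4071 with median-of-ratios scaling, 980 rescaled, 615 with library weights and 146 with only the compared groups. Over all loci 15283 were called lower, but 3200 with median-of-ratios scaling and 10690 rescaled. For Col0 15D against pp7l 15D the 3 members called lower became 1 with a pseudocount of 0.1, no filter, rescaling, only the compared groups or the replicate block, 0 with median-of-ratios scaling, and 1 to 5 with 1 library left out. Those called higher, 113, were 98 to 135 with 1 library left out, 98 with only the compared groups, 138 rescaled, 141 with library weights and 148 with median-of-ratios scaling. Over all loci 836 were called higher, but 662 with only the compared groups, 2077 rescaled, 2196 with library weights and 6123 with median-of-ratios scaling. Over all loci 14532 were called lower, but 5817 with median-of-ratios scaling. With the replicate block the other counts of members called higher were 142 over Col0 6D, 3 over Col0 12D and 147 over Col0 0D. Over all loci these counts were 1993, 193 and 3039 in the same order.

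Direction turned for a few named changes: HAI1 from Col0 12D was -1.05, but 1.21 with median-of-ratios scaling and 0.21 rescaled; against pp7l 15D, HB-7 was -0.87, but 1.23 and 0.05, APL4 -0.77, but 1.26 and 0.12 under these settings, and AT1G68570 -1.39, but 0.67 with median-of-ratios scaling. Over the printed changes of named genes and their alternatives, 495 values kept direction and call, 32 lost and 21 gained the call. Had Col0 15D been part of the ceiling, 75 of the 150 members would have stayed. With 1 Col0 12D library left out, 136 to 143 stayed. The count of members with at least 10 TPM at Col0 15D, 104, was 92 to 111 with 1 library left out, 130 with median-of-ratios scaling and 142 rescaled. The causes were not tested. Depth is unknown, and Col0 15D replicate 3 holds 7.61% of its TPM outside rRNA, AT1G15405 and organelle loci.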
